A study of Mus musculus with 16 samples.

Results

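The genes described here are 10 CC chemokine ligands (Ccl2, Ccl3, Ccl4, Ccl6, Ccl7, Ccl8, Ccl9, Ccl12, Ccl17 and Ccl24), chosen as the probes whose gene symbol is one of these names, out of 22011 genes and unnamed probes tested. All 10 had a probe on the array and all 10 passed the filter on dim probes. Each was read by 1 probe. The Ccl2 probe was printed at 10 spots per array, whose SD within an array lay between 0.0457 and 0.119 on the log2 scale.

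RNA came from untreated C57BL/6 mice. The 3 heart populations were live CD45+MerTK+CD64+Ly6cNeg cells sorted from digested cardiac tissue. CCR2+ Mac were CCR2Hi and MHCIIHi. MHC-IIHi Mac were CCR2Neg, MHCIIHi and CD11cLow, and MHC-IIlo Mac were CCR2Neg, CD11cNeg and MHCII low. The fourth population, Ly6cHi Mono, was Ly6cHi monocytes from blood, for which the labels name no other gate. Each population had 4 replicates of 1 ng RNA, 1 array each, 16 arrays in all. The labels give neither age nor sex, and whether the replicates were different or pooled mice is not stated, so p-values measure the spread between these samples, which may be technical. Tissue, sorting gate and the position of the array on its slide changed together between groups and cannot be told apart. The number of arrays limits the precision.

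CC chemokines are small secreted proteins that steer leukocytes through G protein-coupled receptors. Ccl2, Ccl7 and Ccl12 act on CCR2, the receptor that Ly6c-high monocytes use to leave the bone marrow and enter inflamed tissue. Ccl3, Ccl6 and Ccl9 act on CCR1. Mouse Ccl8 is known as a CCR8 ligand, Ccl17 acts on CCR4 and Ccl24 on CCR3. Tissue macrophages are a major source of several of them, and genes such as Ccl2, Ccl3 and Ccl4 are quickly induced when a cell is activated.

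Levels are log2 processed signals minus the array's 75th percentile, so 0 is the signal at that percentile. Levels of different genes come from different probes and are not set against each other. On the monocyte arrays 52.8% to 60.1% of the spots were well above background, and on the macrophage arrays 58.1% to 69.3%. No spot was saturated. The 75th percentile itself was a signal of 819 to 996 on the monocyte arrays and of 941 to 1670 on the macrophage arrays. Brightness and scaling thus differed between blood and heart. Of 9 sort marker genes, Mertk, Ly6c1 and H2-Ab1 differed between populations in the direction of the gates. The others are not given here, except Ccr2 further on. Mertk was dim on all monocyte arrays and lay between 1.46 and 3.60 on the 12 macrophage arrays, Ly6c1 was between 5.50 and 6.01 in monocytes against at most 3.68 in macrophages, and H2-Ab1 averaged 5.82 in CCR2+ Mac, 5.81 in MHC-IIHi Mac and 3.99 in MHC-IIlo Mac. Among markers of heart cells, the summed linear signal of 10 cardiomyocyte genes, in multiples of the 75th percentile, was 16.9 to 30.7 on the macrophage arrays and 2.37 to 2.84 on the monocyte arrays, and that of 8 fibroblast genes was 4.01 to 10.8 and 1.31 to 1.51. The cardiomyocyte gene Ryr2 and the fibroblast genes Pdgfra and Dpt were not well above background on any array. The part of such RNA in the differences from monocytes was not tested.

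Of the 10 ligands, 9 differed between CCR2+ Mac and monocytes (8 higher and 1 lower), where 21.9% of all genes tested were called (limma, adjusted p under 0.05), 9.88% higher and 12% lower. In MHC-IIHi Mac 7 were higher than in monocytes and none was lower, against 21.6% of all genes called in either direction (10.1% higher and 11.5% lower), and in MHC-IIlo Mac again 7 were higher and none lower, against 21.4% (10% higher and 11.4% lower). The median difference of the 10 ligands was 3.30 in CCR2+ Mac, 4.60 in MHC-IIHi Mac and 5.36 in MHC-IIlo Mac, beside medians of -0.10, -0.05 and -0.06 over all genes. With the normexp background correction, which adds an offset of 50 to the signals, the medians were 1.55, 2.77 and 3.13, and the same number of ligands was called. With the replicate number as a block in the fit, 8 ligands were higher and 2 lower in CCR2+ Mac. The block gave 7 higher and 2 lower in MHC-IIHi Mac, and 7 higher and none lower in MHC-IIlo Mac. It also raised the calls over all 22011 features, from 4824 to 7442 in CCR2+ Mac and from 4720 to 7093 in MHC-IIlo Mac. The arrays of the 2 groups did not overlap for 10, 7 and 7 ligands, as for 25.2%, 22.7% and 23% of all genes. The 7 ligands higher in every macrophage population (Ccl2, Ccl3, Ccl4, Ccl7, Ccl8, Ccl12 and Ccl24) were so on each of the 4 slides, on which all groups had 1 array. These 3 comparisons share the monocyte arrays. Ccl3, Ccl7 and Ccl12 were well above background on no monocyte array, and Ccl4 and Ccl8 on 1 of 4. These ligands passed the filter on dim probes through the macrophage arrays, where they were high, so the filter favoured that direction. Of the 5 ligands with a probe well above background on all 16 arrays, 3 were higher and 1 lower in CCR2+ Mac. In MHC-IIHi Mac and in MHC-IIlo Mac 2 were higher and none lower. That filter left 14549 features, and the shares of all genes given above do not belong to it. Differences in transcript per cell and in the share of producing cells cannot be told apart in such sorted bulk RNA.

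**Figure D1:**
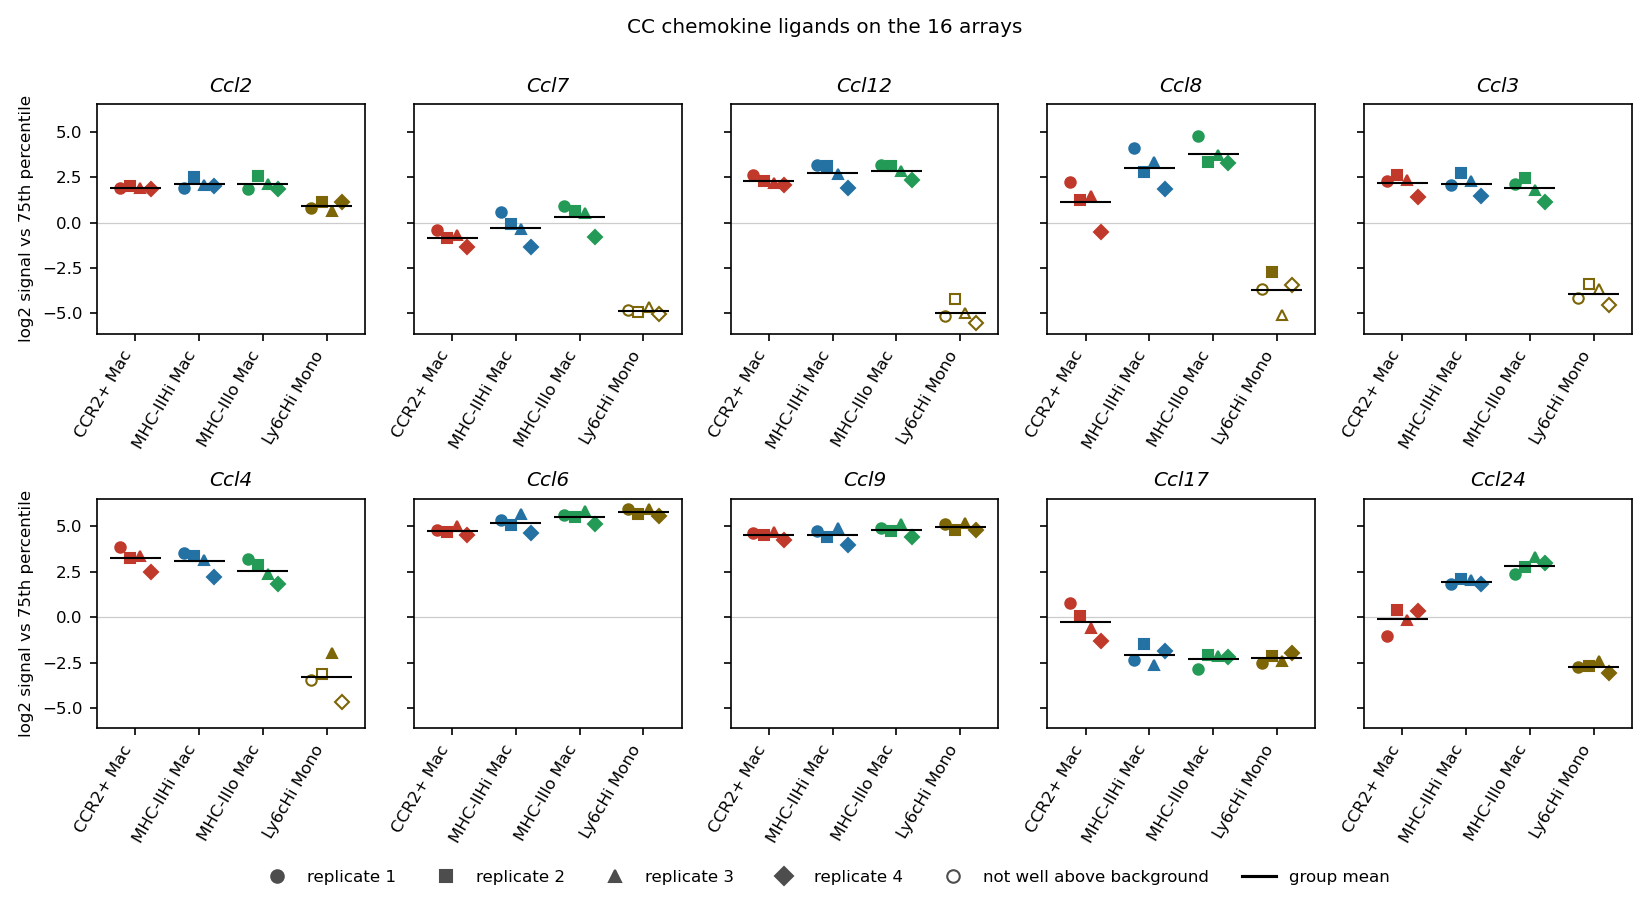
Log2 signal relative to the array's 75th percentile (y axis) of each ligand on every array, by population (x axis), with the symbol giving the replicate number, an open symbol an array on which the probe was not well above background, and a bar the group mean. Ccl12, Ccl3 and Ccl7 are open on all 4 monocyte arrays, Ccl6 and Ccl9 are high in all 4 populations, Ccl17 is highest in CCR2+ Mac, and Ccl24 is lowest in monocytes and highest in MHC-IIlo Mac.

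Among the CCR2 ligands, Ccl12 was well measured in every macrophage population and near background in monocytes. It read 2.61, 2.26, 2.16 and 2.06 in CCR2+ Mac, 3.17, 3.11, 2.65 and 1.92 in MHC-IIHi Mac, and 3.17, 3.10, 2.83 and 2.33 in MHC-IIlo Mac, replicates 1 to 4. On the monocyte arrays it read -5.17, -4.21, -4.98 and -5.53 and was above background by the scanner's criterion on none. All macrophage arrays lay above all monocyte arrays. Because the monocyte level is only a bound, the fold is given against, per array, the higher of the probe's own signal and the lowest signal of any probe well above background. On that rule Ccl12 was at least 40.9-fold higher in CCR2+ Mac, 55.4-fold in MHC-IIHi Mac and 61.3-fold in MHC-IIlo Mac (limma adjusted p = 5.35e-10, 1.54e-10 and 1.12e-10). The p-values test the difference from the dim monocyte signals as read and not the bounds. The same holds for Ccl7, Ccl3 and Mrc1 below. The bounds hold for the processed signal only. With normexp the ratios were 24.3, 35.1 and 38.0, below them.

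Ccl7, another CCR2 ligand, showed the same split between heart and blood. Its level was -0.43, -0.87, -0.67 and -1.36 in CCR2+ Mac, 0.60, -0.08, -0.37 and -1.36 in MHC-IIHi Mac, and 0.94, 0.65, 0.55 and -0.80 in MHC-IIlo Mac. The monocyte arrays read -4.79, -4.89, -4.64 and -5.04, none well above background. The bounds were at least 4.74-fold higher in CCR2+ Mac, 6.85-fold in MHC-IIHi Mac and 10.7-fold in MHC-IIlo Mac (adjusted p = 3.76e-06, 6.09e-07 and 1.35e-07). The ratios with normexp were 2.73, 3.72 and 5.40 (limma adjusted p = 0.0124, 0.00175 and 0.000157). Within each macrophage group replicate 4 was the lowest array.

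Ccl2, the best known monocyte attractant of the family, was measured in all 4 populations. It read 1.88, 2.03, 1.89 and 1.87 in CCR2+ Mac, 1.90, 2.49, 2.07 and 2.03 in MHC-IIHi Mac, 1.86, 2.57, 2.13 and 1.83 in MHC-IIlo Mac, and 0.80, 1.14, 0.64 and 1.16 in monocytes. No macrophage array fell to the monocyte range. The difference from monocytes was 0.98 ± 0.20 (SE) in CCR2+ Mac, 1.19 ± 0.20 in MHC-IIHi Mac and 1.17 ± 0.20 in MHC-IIlo Mac, a ratio of 1.98, 2.28 and 2.24 (adjusted p = 0.0025, 0.000484 and 0.000554). The 3 macrophage populations overlapped, with differences between -0.21 and 0.02.

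Ccl8 lay above the monocyte arrays in every macrophage population and was lowest of the 3 in CCR2+ Mac. It read 2.25, 1.25, 1.46 and -0.50 in CCR2+ Mac, 4.13, 2.78, 3.34 and 1.82 in MHC-IIHi Mac, and 4.77, 3.34, 3.74 and 3.28 in MHC-IIlo Mac. In monocytes it read -3.65, -2.72, -5.09 and -3.41, with the probe well above background on 1 of 4 arrays. The difference from monocytes was 4.83 ± 0.62 in CCR2+ Mac, 6.74 ± 0.62 in MHC-IIHi Mac and 7.50 ± 0.62 in MHC-IIlo Mac (adjusted p = 4.94e-05, 1.06e-06 and 3.06e-07). Since 3 of the 4 monocyte arrays were dim, these sizes depend on values near background, and with normexp they were 2.90, 4.83 and 5.58.

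In the RefSeq gene order, Ccl2, Ccl7, Ccl12 and Ccl8 follow each other on chromosome 11 with only Ccl11 between Ccl7 and Ccl12. RefSeq promoter sequences (GRCm38.p6) were matched for 6 of the 10 ligands. The 250 bases upstream of Ccl12 and of Ccl8, written 5′ to 3′ on the gene's strand, are shown because these neighbours were both near background in monocytes and clearly measured in macrophages. Capitals mark the letters TATAAA, searched on the plus strand of the gene.

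Ccl12, chr11:82101595-82101844, plus strand: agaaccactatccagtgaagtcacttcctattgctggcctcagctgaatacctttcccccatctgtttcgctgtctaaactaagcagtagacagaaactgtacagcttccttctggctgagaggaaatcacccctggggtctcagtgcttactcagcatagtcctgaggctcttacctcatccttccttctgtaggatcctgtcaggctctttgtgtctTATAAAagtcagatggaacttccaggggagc

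Ccl8, chr11:82114935-82115184, plus strand: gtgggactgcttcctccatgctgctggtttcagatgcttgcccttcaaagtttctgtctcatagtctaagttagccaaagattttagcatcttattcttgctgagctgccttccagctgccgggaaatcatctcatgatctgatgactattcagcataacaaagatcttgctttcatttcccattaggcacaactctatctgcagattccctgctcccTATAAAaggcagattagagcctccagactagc

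TATAAA stands at -31 to -26 from the start of Ccl12 and at -32 to -27 from that of Ccl8. It occurs in 7.59% of 32841 promoters of this length. An interferon response motif, GAAA followed after any 2 bases by GAAA (either strand, in 2.98% of promoters), was found in none of the 6 promoters. A match is a description of the letters and not a binding site.

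Ccl3 and Ccl4, the macrophage inflammatory proteins, were both high in heart and near background in blood. Ccl3 read 2.27, 2.64, 2.35 and 1.41 in CCR2+ Mac, 2.05, 2.74, 2.26 and 1.45 in MHC-IIHi Mac, and 2.13, 2.43, 1.79 and 1.14 in MHC-IIlo Mac. The monocyte arrays read -4.15, -3.38, -3.68 and -4.53, none well above background. Ccl3 was therefore at least 38.0-fold higher in CCR2+ Mac, 36.9-fold in MHC-IIHi Mac and 31.0-fold in MHC-IIlo Mac (adjusted p = 1.14e-08, 8.12e-09 and 1.12e-08). Normexp gave ratios of 16.4, 17.3 and 14.2, again below the bounds.

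Ccl4 read 3.84, 3.26, 3.36 and 2.50 in CCR2+ Mac, 3.53, 3.36, 3.16 and 2.21 in MHC-IIHi Mac, and 3.19, 2.87, 2.35 and 1.80 in MHC-IIlo Mac. In monocytes it read -3.46, -3.10, -1.96 and -4.66, and only replicate 3 was well above background. The differences from monocytes were 6.54 ± 0.49, 6.36 ± 0.49 and 5.85 ± 0.49 (adjusted p = 1.7e-07, 1.45e-07 and 3.38e-07), and 5.29, 5.06 and 4.56 with normexp. For both genes the order of the means ran from CCR2+ Mac through MHC-IIHi Mac to MHC-IIlo Mac, but no neighbouring macrophage groups in that order differed beyond their spread.

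Ccl6 and Ccl9, ligands of CCR1 made constitutively by myeloid cells, were well above background on every array, and both had their highest mean in monocytes. Ccl6 read 4.77, 4.71, 5.03 and 4.52 in CCR2+ Mac, 5.33, 5.08, 5.69 and 4.65 in MHC-IIHi Mac, 5.60, 5.52, 5.81 and 5.13 in MHC-IIlo Mac, and 5.95, 5.68, 5.94 and 5.56 in monocytes. Every CCR2+ Mac array lay below every monocyte array, with a difference of -1.02 ± 0.23, a ratio of 2.03 (adjusted p = 0.00425). This call was lost with quantile normalization, where the difference was -0.54 (adjusted p = 0.0715). The difference was -0.59 ± 0.23 in MHC-IIHi Mac (adjusted p = 0.0806) and -0.27 ± 0.23 in MHC-IIlo Mac (adjusted p = 0.497), and these arrays overlapped those of monocytes. With the replicate number as a block the MHC-IIHi Mac difference passed the threshold (adjusted p = 0.00258).

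Ccl9 read 4.61, 4.51, 4.70 and 4.24 in CCR2+ Mac, 4.73, 4.39, 4.93 and 3.98 in MHC-IIHi Mac, 4.92, 4.72, 5.14 and 4.40 in MHC-IIlo Mac, and 5.14, 4.82, 5.19 and 4.77 in monocytes. None of its differences from monocytes passed the threshold: -0.46 ± 0.23 in CCR2+ Mac (adjusted p = 0.172, 95% interval -0.95 to 0.02), -0.47 ± 0.23 in MHC-IIHi Mac (adjusted p = 0.173) and -0.19 ± 0.23 in MHC-IIlo Mac (adjusted p = 0.664). With the replicate block the first was called (adjusted p = 0.00859) and so was the second (adjusted p = 0.00758). In the quantile-normalized data the differences in CCR2+ Mac and MHC-IIlo Mac changed sign, to 0.036 and 0.20.

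In gene order Ccl9, Ccl6, Ccl3 and Ccl4 follow each other on chromosome 11, next to Ccl5. The promoters of Ccl9 and Ccl6 are shown because these neighbours varied together between arrays, as described further on. Capitals mark TATAAA, the AP-1 letters TGANTCA and the NF-kB consensus, the last found on the opposite strand.

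Ccl9, chr11:83578637-83578886, minus strand: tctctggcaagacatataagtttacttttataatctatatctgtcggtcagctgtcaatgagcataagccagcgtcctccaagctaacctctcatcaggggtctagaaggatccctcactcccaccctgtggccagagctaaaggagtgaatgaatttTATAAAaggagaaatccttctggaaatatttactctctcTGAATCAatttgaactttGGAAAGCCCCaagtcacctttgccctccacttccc

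Ccl6, chr11:83593088-83593337, minus strand: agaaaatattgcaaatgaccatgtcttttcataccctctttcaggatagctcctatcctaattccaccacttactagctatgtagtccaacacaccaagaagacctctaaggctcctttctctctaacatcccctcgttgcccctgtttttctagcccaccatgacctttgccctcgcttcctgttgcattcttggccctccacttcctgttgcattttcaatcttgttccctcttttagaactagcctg

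The Ccl9 promoter holds TATAAA at -92 to -87, an AP-1 match at -53 to -47 and an NF-kB consensus match at -35 to -26. Both strands were searched for AP-1, found in 6.75% of promoters, and for NF-kB, in 7.25%. The Ccl6 and Ccl3 promoters held none of the 5 motifs searched in this window. The matches do not overlap.

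Ccl17, a CCR4 ligand that attracts T cells and is known from dendritic cells, stood apart from the others by being higher in CCR2+ Mac alone. It read 0.78, 0.06, -0.63 and -1.33 in CCR2+ Mac, -2.36, -1.48, -2.61 and -1.89 in MHC-IIHi Mac, -2.85, -2.08, -2.12 and -2.18 in MHC-IIlo Mac, and -2.54, -2.14, -2.40 and -1.99 in monocytes, where all arrays were well above background. The 4 CCR2+ Mac arrays lay above all others although their spread for this gene (SD 0.91) was wider than in the other populations (0.24 to 0.50). The difference from monocytes was 1.99 ± 0.38 in CCR2+ Mac (adjusted p = 0.00134), and 1.30 with normexp, against 0.18 ± 0.38 in MHC-IIHi Mac (adjusted p = 0.832) and -0.04 ± 0.38 in MHC-IIlo Mac (adjusted p = 0.966). Of 11 dendritic cell markers, 9 were well above background on all CCR2+ Mac arrays, 4 on all MHC-IIHi Mac arrays, 4 on all MHC-IIlo Mac arrays and 7 on all monocyte arrays. Their summed signal was 36.7 to 45.1 in CCR2+ Mac, 34.8 to 47.6 in MHC-IIHi Mac, 39.0 to 46.0 in MHC-IIlo Mac and 48.0 to 51.0 in monocytes. Xcr1 was not well above background in any macrophage population. Of the 9 of these markers that passed the filter, 2 were called higher in CCR2+ Mac than in MHC-IIHi Mac (median difference 0.49) and 3 higher than in MHC-IIlo Mac (median 0.74), with none lower in either. Cd209a was higher by 2.74 ± 0.62 and 2.53 ± 0.62 (limma adjusted p = 0.0432 and 0.0396), Dpp4 by 1.83 ± 0.30 and 1.33 ± 0.30 (adjusted p = 0.00568 and 0.026), and Batf3 than in MHC-IIlo Mac by 1.03 ± 0.24 (adjusted p = 0.0257). Against monocytes none of the 9 was higher in CCR2+ Mac and 1 was lower. The part of dendritic cells in the Ccl17 level was not tested.

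The promoter of Ccl17, which lies on chromosome 8 next to Cx3cl1, is shown because of this separate pattern. Capitals mark a STAT6 motif, TTC and GAA with any 4 bases between them, searched on both strands.

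Ccl17, chr8:94810203-94810452, plus strand: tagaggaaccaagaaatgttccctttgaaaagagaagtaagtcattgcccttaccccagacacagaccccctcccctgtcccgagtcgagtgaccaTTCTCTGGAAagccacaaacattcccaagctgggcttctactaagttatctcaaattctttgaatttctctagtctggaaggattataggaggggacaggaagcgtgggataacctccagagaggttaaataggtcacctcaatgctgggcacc

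The match stands at -154 to -145, and 5.85% of promoters hold one.

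Ccl24, an eosinophil attractant acting on CCR3, was the only ligand of the 10 whose arrays did not overlap between any pair of populations. It read -1.05, 0.38, -0.15 and 0.34 in CCR2+ Mac, 1.80, 2.09, 2.04 and 1.81 in MHC-IIHi Mac, 2.35, 2.73, 3.28 and 2.97 in MHC-IIlo Mac, and -2.74, -2.68, -2.41 and -3.05 in monocytes. From monocytes the level went up through CCR2+ Mac and MHC-IIHi Mac to MHC-IIlo Mac. The differences from monocytes were 2.60 ± 0.29 in CCR2+ Mac, 4.66 ± 0.29 in MHC-IIHi Mac and 5.55 ± 0.29 in MHC-IIlo Mac, ratios of 6.07, 25.2 and 47.0 (adjusted p = 1.24e-05, 1.45e-08 and 2e-09). The ratios with normexp were 3.14, 12.5 and 23.6.

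Between the macrophage populations fewer ligands were called than against monocytes. From CCR2+ Mac to MHC-IIHi Mac 2 of 10 were called, 1 in each direction, where 1.26% of all genes were (0.632% higher and 0.627% lower). The arrays of these groups did not overlap for 2 ligands, as for 7.81% of all genes. Ccl17 was higher in CCR2+ Mac by 1.80 ± 0.38, a ratio of 3.49 (adjusted p = 0.0264), and higher on 4 of 4 slides. Ccl24 was lower in CCR2+ Mac, with a difference of -2.06 ± 0.29, a ratio of 4.16 (adjusted p = 0.00173). The Ccl17 call was lost without CCR2+ Mac replicate 1 or 2 or MHC-IIHi Mac replicate 1, 3 or 4, with differences from 1.45 to 2.16 over the replicates left out, and in a fit of only these 2 groups. Ccl8 differed by -1.91 ± 0.62 and did not pass (adjusted p = 0.23), although it was lower in CCR2+ Mac on 4 of 4 slides.

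From CCR2+ Mac to MHC-IIlo Mac 3 ligands were called, 1 higher and 2 lower in CCR2+ Mac, where 2.81% of all genes were called (1.51% higher and 1.3% lower). The arrays did not overlap for 4 ligands, as for 8.26% of all genes. Ccl17 was higher by 2.03 ± 0.38, a ratio of 4.08 (adjusted p = 0.00666). Ccl24 differed by -2.95 ± 0.29, a ratio of 7.74 (adjusted p = 3.12e-05), and Ccl8 by -2.67 ± 0.62, a ratio of 6.36 (adjusted p = 0.0296). The Ccl8 call was lost without CCR2+ Mac replicate 2, 3 or 4 or MHC-IIlo Mac replicate 1, 3 or 4, with differences from -3.05 to -2.13, and both Ccl8 and Ccl17 were lost in a fit of only these 2 groups. The replicate block raised the calls over all 22011 features from 618 to 1273. With the block 5 ligands were called, adding Ccl6 (-0.76, adjusted p = 0.00348) and Ccl7 (-1.17, adjusted p = 0.0148). These had adjusted p = 0.114 and 0.19 without it.

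MHC-IIHi Mac and MHC-IIlo Mac differed in none of the 10 ligands by limma, where 0.0727% of all genes were called (0.0545% higher and 0.0182% lower in MHC-IIHi Mac). At an unadjusted p under 0.05 there was 1, Ccl24, whose arrays did not overlap, as those of 2.34% of all genes did not (-0.90 ± 0.29, 95% interval -1.52 to -0.28, adjusted p = 0.736). No alternative fit, the replicate block included, called any ligand here. The widest interval was that of Ccl8, from -2.10 to 0.57, so that differences of that size were not excluded by these arrays.

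**Figure D2:**
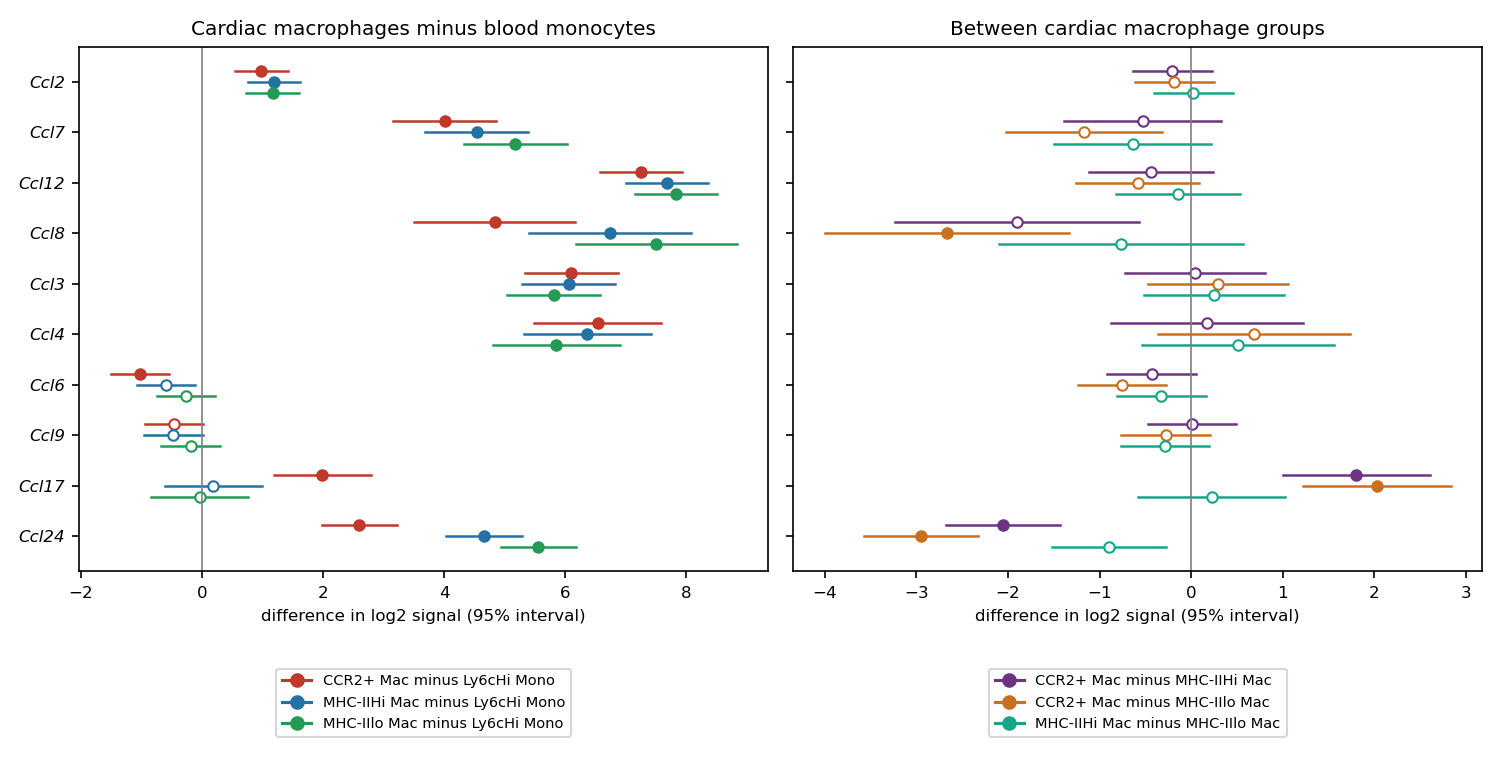
Difference in log2 signal (x axis) of each ligand (y axis) with its 95% interval, for macrophages minus monocytes (left) and between macrophage populations (right), with filled points at an adjusted p under 0.05 in limma. On the left 7 ligands lie above 0 in all 3 comparisons, and on the right only Ccl17, Ccl24 and Ccl8 have filled points.

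Of the receptors, Ccr2 was part of the sorting gates. It averaged 0.61 ± 0.18 (SD, n = 4) in CCR2+ Mac, -3.25 ± 0.52 in MHC-IIHi Mac, -3.86 ± 0.76 in MHC-IIlo Mac and 1.11 ± 0.14 in monocytes, low in both CCR2Neg gates. The Ccr1 probe was well above background on 1, 1, 2 and 0 of 4 arrays in CCR2+ Mac, MHC-IIHi Mac, MHC-IIlo Mac and monocytes. Ccr3 and Ccr4, the receptors of Ccl24 and Ccl17, were not well above background on any array, and Ccr8 was so on 1 to 3 arrays of each population.

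Of 13 receptor genes, 11 passed the filter. Ccrl2 was the 1 called higher than in monocytes in CCR2+ Mac, where none was lower. In MHC-IIHi Mac Ccrl2 was higher and Ccr2 lower, and in MHC-IIlo Mac Ccrl2 and Ccr1 were higher and Ccr2 lower. The median of the 11 differences was 0.34, -0.19 and -0.12, and the first changed sign with normexp background correction, to -0.36. With normexp 3, 4 and 5 receptors were called lower, and with the replicate block 2, 2 and 3. The block added Ackr4, a scavenger of CC chemokines, in all 3 populations, Ccr6 in CCR2+ Mac and Ccr7 in MHC-IIlo Mac. Ccrl2, a receptor-like protein that does not signal, was higher than in monocytes by 2.70 ± 0.31 in CCR2+ Mac, 1.55 ± 0.31 in MHC-IIHi Mac and 1.05 ± 0.31 in MHC-IIlo Mac (adjusted p = 1.76e-05, 0.00198 and 0.0251). The last of these calls was lost with median scaling, with normexp and without slide 4. Ccr1 was dim on all monocyte arrays and on 2 of 4 MHC-IIlo Mac arrays, so that its difference of 1.87 ± 0.59 (adjusted p = 0.0323) rests on dim values, and it was lost with normexp, with array weights and without any of 7 of the 8 arrays. Between macrophages, Ccrl2 was higher in CCR2+ Mac than in MHC-IIlo Mac by 1.65 ± 0.31 (adjusted p = 0.00769).

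**Figure D3:**
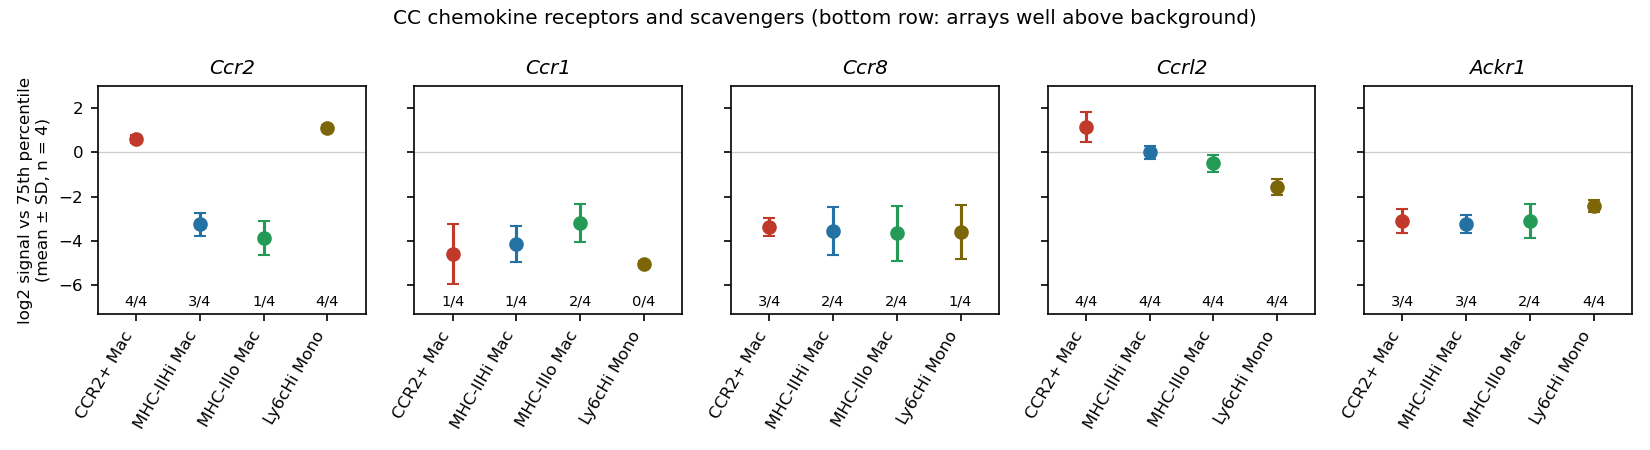
Mean log2 signal relative to the array's 75th percentile (y axis, bars ± SD, n = 4) of 5 receptor genes by population (x axis), with the number of arrays well above background along the bottom. Ccrl2 is lowest in monocytes, Ccr2 is low in the CCR2Neg populations, and Ccr1 is well above background on at most 2 arrays of a population, Ccr8 on at most 3 and Ackr1 on 2 to 4.

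Of 11 other CC ligands, 6 passed the filter, 4 (Ccl11, Ccl20, Ccl22 and Ccl28) were not well above background on any array and 1, Ccl21a, was not matched. Ccl5, a T-cell and monocyte attractant and the genomic neighbour of Ccl9, was the 1 called in each comparison with monocytes, higher by 1.98 ± 0.24 in CCR2+ Mac, 1.32 ± 0.24 in MHC-IIHi Mac and 0.89 ± 0.24 in MHC-IIlo Mac (adjusted p = 2.43e-05, 0.000753 and 0.013). The last was lost with median scaling (adjusted p = 0.0518). With the replicate block 2 were called in MHC-IIHi Mac and in MHC-IIlo Mac, the second being Ccl19. Ccl5 was also higher in CCR2+ Mac than in MHC-IIlo Mac by 1.09 ± 0.24 (adjusted p = 0.0187), a call lost without slide 4 and without any of 4 single arrays.

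Immediate early genes, which respond quickly to cell activation, were higher in the same populations as most ligands. Of 17 immediate early genes measured, 15 were higher than in monocytes in each macrophage population, with 0, 1 and 1 lower in CCR2+ Mac, MHC-IIHi Mac and MHC-IIlo Mac, and the median differences were 3.01, 3.04 and 2.71. The 15 stayed at 15 or 16 under quantile, median and normexp scaling. The summed signal of the list was 187 to 312 on the macrophage arrays and 42.9 to 57.9 on the monocyte arrays. Fosb, a subunit of AP-1, was higher by 5.05 ± 0.21, 4.94 ± 0.21 and 4.86 ± 0.21 (adjusted p = 2.85e-10, 1.7e-10 and 1.72e-10), and the AP-1 subunit Jun by 4.62 ± 0.20, 4.99 ± 0.20 and 4.84 ± 0.20 (adjusted p = 4.66e-10, 1.16e-10 and 1.26e-10). The heart was digested before sorting, while the labels do not describe how blood was handled. The part of handling in the levels of Ccl2, Ccl3, Ccl4, Ccl7, Ccl8 and Ccl12 was not tested, and tissue and handling cannot be told apart here. None of the 17 genes was called between macrophage populations by limma, with 0, 3 and 1 at an unadjusted p under 0.05 for CCR2+ Mac against MHC-IIHi Mac, CCR2+ Mac against MHC-IIlo Mac and MHC-IIHi Mac against MHC-IIlo Mac, and with 1 called in the second of these under the replicate block. The block also called 1 of the 17, Nr4a1, lower in CCR2+ Mac than in monocytes.

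NF-kB pathway genes moved in both directions. Of 15 genes, 3 were higher and 4 lower than in monocytes in CCR2+ Mac, 2 and 5 in MHC-IIHi Mac, and 3 and 5 in MHC-IIlo Mac. The 4 became 2 with quantile normalization, with median scaling and without slide 4. Between CCR2+ Mac and MHC-IIlo Mac 1 gene was called, and 4 with the replicate block, all higher in CCR2+ Mac, and between CCR2+ Mac and MHC-IIHi Mac the block called 1 where limma without it called none, with 1 at an unadjusted p under 0.05. Nfkbiz and Nfkbia, themselves induced by NF-kB, were higher, Nfkbiz by 2.77 ± 0.23, 2.78 ± 0.23 and 2.34 ± 0.23 (adjusted p = 5.1e-07, 3.24e-07 and 2.02e-06). The kinase subunit gene Ikbkb was lower in CCR2+ Mac with a difference of -1.47 ± 0.26 and in MHC-IIHi Mac with -1.41 ± 0.26 (adjusted p = 0.000786 and 0.000938). It was also lower in MHC-IIlo Mac, with a difference of -1.42 (limma adjusted p at most 0.014 over the alternative fits).

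Among 15 genes of the IL-4 and STAT6 response, of which Ccl17 and Ccl24 are known targets in macrophages, 13 passed the filter. In CCR2+ Mac 3 were higher and 2 lower than in monocytes, against 6 higher and 2 lower in both MHC-IIHi Mac and MHC-IIlo Mac. The 3 became 6 with quantile normalization and with the replicate block, and 5 with normexp. The block also gave 5 lower in place of 2 in MHC-IIlo Mac. From CCR2+ Mac to MHC-IIlo Mac it gave 1 higher and 3 lower in CCR2+ Mac, in place of 1 and 1, and from CCR2+ Mac to MHC-IIHi Mac none higher and 1 lower, in place of 1 and none. Mrc1, the mannose receptor, was not well above background in monocytes and was at least 20.2-fold higher in CCR2+ Mac, 33.1-fold in MHC-IIHi Mac and 44.3-fold in MHC-IIlo Mac (adjusted p = 1.19e-09, 2.45e-10 and 1.26e-10). Its lowest log2 differences over the alternatives, 3.53, 4.29 and 4.71, lie below these bounds. Retnla was higher by 5.84 ± 0.59, 5.58 ± 0.59 and 5.61 ± 0.59 (adjusted p = 4.03e-06, 4.51e-06 and 3.96e-06), whereas Chil3 was lower, with differences of -5.01 ± 0.66, -7.86 ± 0.66 and -8.33 ± 0.66 (adjusted p = 5.69e-05, 3.44e-07 and 1.67e-07). The genes of this list therefore did not share one direction. Between macrophages, Chil3 was higher in CCR2+ Mac than in MHC-IIlo Mac by 3.32 ± 0.66 (adjusted p = 0.0106) and Clec10a lower, with a difference of -1.22 ± 0.25 (adjusted p = 0.0147). The Clec10a call was lost with median scaling and without CCR2+ Mac replicate 2 or 4.

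The ligands also varied together between arrays of one population. Deviations from the group mean over the 16 arrays, which share slides and scaling, correlated with a Pearson r of 0.98 for Ccl6 and Ccl9, 0.79 for Ccl3 and Ccl12, 0.75 for Ccl3 and Ccl4, and 0.75 for Ccl7 and Ccl12. Of 45 pairs, 7 had an r over 0.7, and the median was 0.28. Ccl24 ran the other way from Ccl8, with an r of -0.57. The monocyte arrays hold values near background for several ligands. Over the 12 macrophage arrays alone, 11 pairs had an r over 0.7 and the median was 0.40. There r was 0.93 for Ccl7 and Ccl12, 0.92 for Ccl4 and Ccl7, 0.91 for Ccl4 and Ccl12, 0.74 for Ccl3 and Ccl12, and 0.85 for Ccl4 and Ccl8, which had 0.25 over all 16. These are descriptions with no test. The probes of the ligands shared at most 9 bases in a row with any probe of another CC ligand. They were not compared with the transcripts of the other ligands, so whether a probe also read another ligand's RNA was not tested.

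**Figure D4:**
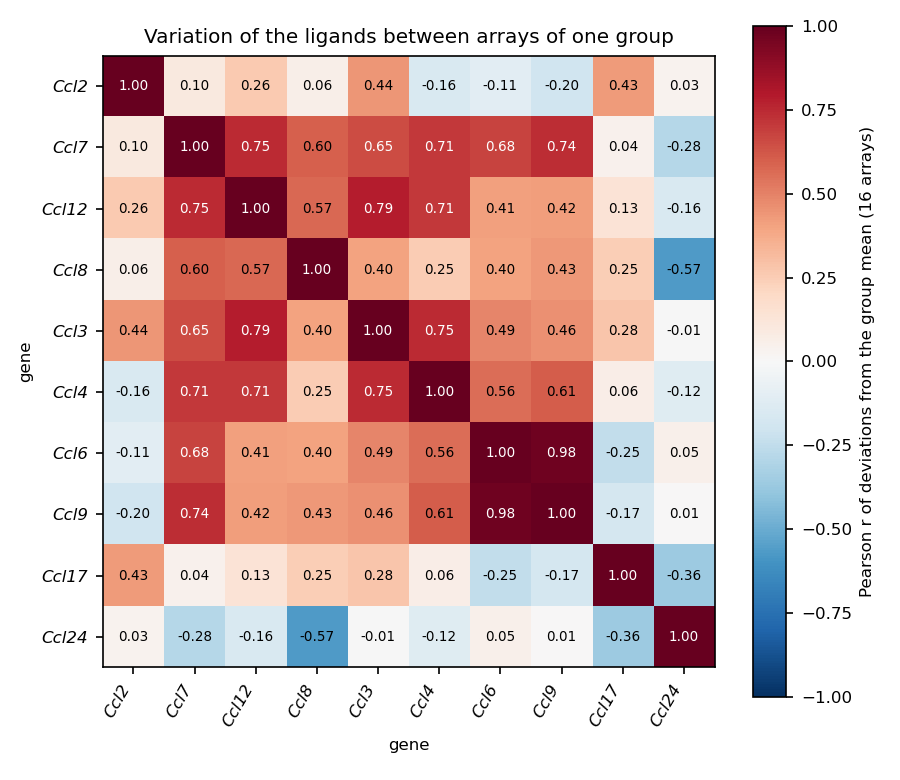
Pearson r between the deviations of each pair of ligands (both axes) from their group means over 16 arrays, coloured from -1 to 1. Ccl6 and Ccl9 share the strongest relation (0.98), Ccl7, Ccl12, Ccl3 and Ccl4 form a block of positive values, and Ccl17 and Ccl24 stand outside it.

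Part of this variation followed the slide. Replicate 4, the fourth slide of each population, was the lowest of the 4 arrays in all 3 macrophage populations for 7 of the 10 ligands (Ccl3, Ccl4, Ccl6, Ccl7, Ccl8, Ccl9 and Ccl12), where 4.23% of all genes were. Averaged over the 3 populations, replicate 4 deviated by -1.10 for Ccl8, -0.91 for Ccl7, -0.78 for Ccl4, -0.72 for Ccl3 and -0.51 for Ccl12. It deviated by 0.16 for Ccl24, which was lowest in replicate 1 at -0.52. The mean of the immediate early genes deviated by -0.29 in replicate 4 and that of the cardiomyocyte markers by 0.27. Over the 12 macrophage arrays, the mean deviation of the immediate early genes went with that of Ccl9 (r = 0.83), Ccl8 (r = 0.82), Ccl6 and Ccl7 (both r = 0.77) and Ccl4 (r = 0.74), less with Ccl12 (r = 0.59) and Ccl3 (r = 0.47), hardly with Ccl2 (r = -0.14) or Ccl17 (r = 0.07), and inversely with Ccl24 (r = -0.49). The NF-kB list gave like values, with 0.84 for Ccl8, 0.79 for Ccl9 and 0.76 for Ccl6. Other lists ran inversely with some ligands and not with others. Only Ccl17 had a positive r with the endothelial markers (0.31), and only Ccl24 with the cardiomyocyte markers (0.49). The fibroblast markers had a positive r with Ccl8 (0.50), Ccl4 (0.26), Ccl12 (0.13) and Ccl7 (0.12), and one near 0 with Ccl6, Ccl9 and Ccl17. The most negative values were as follows. The endothelial markers gave an r of -0.92 with Ccl6 and -0.85 with Ccl9, the cardiomyocyte markers -0.72 with Ccl3 and -0.68 with Ccl4, and the fibroblast markers -0.75 with Ccl24 and -0.65 with Ccl2. The part of the slide, of activation and of heart cell RNA in these deviations was not tested. Without slide 4 in every group, a fit chosen after these values were seen, 9, 7 and 7 ligands were called against monocytes as before, and 2, 3 and 0 between macrophages. In CCR2+ Mac against MHC-IIlo Mac, Ccl7 was then called (-1.37, adjusted p = 0.0353) and Ccl8 was not (-2.30, adjusted p = 0.135).

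**Figure D5:**
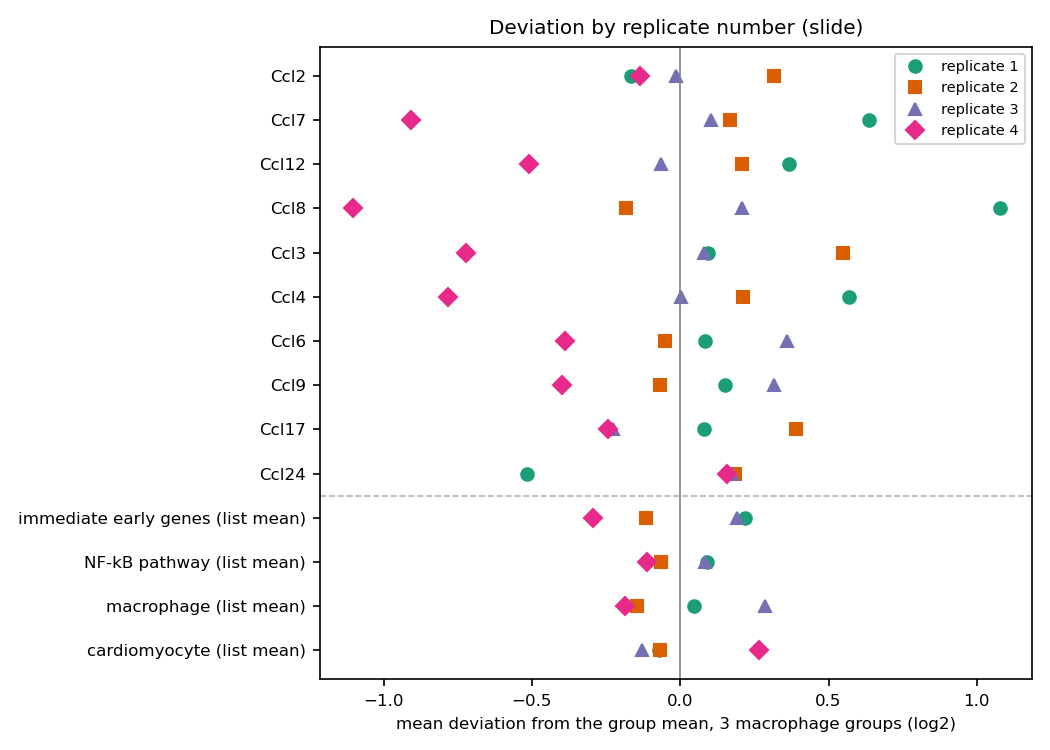
Mean deviation from the group mean over the 3 macrophage populations (x axis, log2) for each ligand and, below the dashed line, for the mean of 4 gene lists (y axis), with 1 symbol per replicate number, which equals the slide. Replicate 4 is the lowest symbol for 8 ligands, with Ccl8 at -1.10, while Ccl2 and Ccl24 are lowest in replicate 1.

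The genes whose levels over the 16 arrays were most like those of each ligand were read by Pearson r among named genes outside the list. Ccl3 was most like Egr2 (r = 0.990), Egr1 (r = 0.990) and Tnf (r = 0.988), and Ccl4 like Gadd45b (r = 0.992), Ms4a7 (r = 0.989) and Prkar1b (r = 0.988). Ccl12 was most like Cd81 (r = 0.995), Tnf (r = 0.994) and C1qc (r = 0.994), Ccl7 like Marchf8, Septin8 and Prmt2 (each r = 0.979), and Ccl8 like Arhgap31 (r = 0.979), C4b (r = 0.978) and Abcc3 (r = 0.975). These ligands all differed between heart and blood, so a high r over all 16 arrays can reflect that difference. Its part in each r was not tested. Ccl24 was most like Tmod1 (r = 0.984), the hyaluronan receptor gene Lyve1 (r = 0.978) and Fcna (r = 0.975). Among the genes most like Ccl17 were Kcnn4 (r = 0.864) and Tnip3 (r = 0.846). Ccl6 was most like Ifi27l2a (r = 0.958), Pde2a (r = 0.946) and Gstp1 (r = 0.944), Ccl9 like Max (r = 0.921), Plpbp (r = 0.913) and Swi5 (r = 0.903), and Ccl2 like Bbs4 (r = 0.962), Abca8a (r = 0.940) and Hdac9 (r = 0.935). The arrays share groups and slides, so these values describe the 16 arrays and carry no test.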

How the data were processed

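RNA of 4 sorted populations, 4 replicates each, was hybridised to 16 one-colour Agilent arrays in the red (Cy5) channel. The deposited scanner files give each spot's processed intensity. Agilent Feature Extraction 11.5.1.1 produced them, per the file headers and the submitters' processing notes, and the notes also name Partek. The extraction's background correction is part of that intensity and limits the precision of dim probes. The log2 values of the deposited value table were not used as results, since each of its 16 columns was most like the scanner file of another sample (Spearman rho at least 0.9998 with its best match, at most 0.960 with its own).

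Control spots and spots marked as outliers were left out. Log2 processed signal minus the array's 75th percentile was averaged over the spots of a probe. Probes well above background on at least 4 of 16 arrays were kept (27643 of 39429), and the brightest represented each gene. Differences were tested with limma 3.58.1 (R 4.3.3; lmFit and eBayes, all 16 arrays, two-sided, 12 residual degrees of freedom) with Benjamini-Hochberg adjustment over 22011 features, in 6 pairwise comparisons. Intervals are 95% intervals of the fit. On simulated arrays with 200 changed genes the fit was checked for recovery. Over the 6 comparisons it recovered 20% to 34% of log2 changes of 1 and 66% to 88% of log2 changes of 2.

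Replicate numbers equal the slide, per the file headers. Same-numbered arrays deviated together in 24 of 24 pairs (correlation 0.139 to 0.639), where arrays of different number had correlations of -0.535 to 0.492. Since the number equals the slide, a shared slide and paired samples cannot be told apart. The main fit has no block, and the fit with it is given where it changes the call of a ligand or moves a list's count by over 1.5 times.

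The ligands and gene lists were chosen with earlier results of these data known. All ligands are named in each comparison. From other lists at most 3 called genes of lowest adjusted p per comparison are named, and the ligands' own receptors whatever their call. Dendritic cell markers, Ikbkb in MHC-IIlo Mac, and genes added by the replicate block, were named after their values were seen. For each ligand the 3 most similar genes by Pearson r are named. In the receptor list and among the genes similar to Ccl17, 1 gene each was left out and is not reported here. Probes were named through RefSeq accessions (27508 of 39429), else by the file. Motifs were chosen by hand from textbook consensus letters. The build of the array annotation differs from that of the promoter sequences, so no other coordinates are given.

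Alternatives were another background correction (normexp), normalizations, filters, probe summaries, array weights, the 2 groups alone, single arrays left out and, chosen after seeing the data, slide 4 left out.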

Additional observations from a re-analysis of the deposited data

Results flagged for a closer look

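In 2 of the 40 sets of 4 arrays (10 ligands in 4 populations), 1 array lay far from the other 3 by Dixon's criterion, about the number that chance alone gives at 1 in 20. Ccl2 in CCR2+ Mac replicate 2 read 2.03 where the others read 1.87 to 1.89. Ccl17 in MHC-IIlo Mac replicate 1 read -2.85 where the others read -2.18 to -2.08.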

How the results depend on the processing

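The differences of Ccl2, Ccl3, Ccl4, Ccl7, Ccl8, Ccl12 and Ccl24 from monocytes kept their direction and their call under every alternative that measured them. Requiring probes well above background on all 16 arrays left 5 ligands measured, among 14549 features. The calls against monocytes then numbered 4, 2 and 2 (CCR2+ Mac, MHC-IIHi Mac, MHC-IIlo Mac). Of the 4, 3 were higher and 1 lower in CCR2+ Mac, and the calls in the other populations were all higher. With the replicate block 5 ligands were called between CCR2+ Mac and MHC-IIlo Mac, and the block changed no other call of a ligand beyond those given in the text. With only the 2 groups compared, the count was 1 against MHC-IIHi Mac and 1 against MHC-IIlo Mac. Leaving out 1 array gave 1 to 2 calls for CCR2+ Mac against MHC-IIHi Mac. Array weights added calls of Ccl6 and Ccl9 in MHC-IIHi Mac against monocytes and of Ccl8 in CCR2+ Mac against MHC-IIHi Mac. Median scaling ended the Ccl8 call of CCR2+ Mac against MHC-IIlo Mac (-2.64).

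Only uncalled differences changed sign. Normexp turned Ccl17 in MHC-IIHi Mac against monocytes (-0.11), Ccl6 in MHC-IIlo Mac against monocytes (0.016), Ccl3 in CCR2+ Mac against MHC-IIHi Mac (-0.076) and Ccl2 in MHC-IIHi Mac against MHC-IIlo Mac (-0.0054). Quantile normalization turned Ccl9 in CCR2+ Mac (0.036) and MHC-IIlo Mac (0.20) and Ccl6 in MHC-IIlo Mac (0.053), all against monocytes. Median scaling turned Ccl2 between MHC-IIHi Mac and MHC-IIlo Mac (-0.0062). Array weights turned Ccl17 in MHC-IIlo Mac against monocytes (0.037) and Ccl3 in CCR2+ Mac against MHC-IIHi Mac (-0.12). Without slide 4, Ccl17 in MHC-IIlo Mac against monocytes (0.0089), Ccl9 in CCR2+ Mac against MHC-IIHi Mac (-0.074) and Ccl2 between MHC-IIHi Mac and MHC-IIlo Mac (-0.035) turned. Leaving out single arrays, Ccl17 ranged from -0.017 to 0.36 in MHC-IIHi Mac and from -0.13 to 0.14 in MHC-IIlo Mac, both against monocytes. Between CCR2+ Mac and MHC-IIHi Mac, Ccl3 ranged from -0.18 to 0.30, Ccl4 from -0.11 to 0.42 and Ccl9 from -0.16 to 0.15. Between MHC-IIHi Mac and MHC-IIlo Mac, Ccl2 ranged from -0.10 to 0.18 and Ccl12 from -0.32 to 0.12. The cause of these changes was not tested.

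Counts of all genes called moved by over 1.5 times under some settings. Against monocytes, CCR2+ Mac had 4824 (7442 with the replicate block, 8556 with no filter, 3015 without slide 4), MHC-IIHi Mac 4746 (3041 without slide 4) and MHC-IIlo Mac 4720 (7093 with the block). CCR2+ Mac against MHC-IIHi Mac had 277 (173 with median scaling, 169 with the filter on all 16 arrays, 552 with the block, 955 with array weights, 100 without slide 4, 156 to 343 leaving out single arrays). CCR2+ Mac against MHC-IIlo Mac had 618 (385, 1273, 1204 and 267 with median scaling, block, array weights and no slide 4, and 336 with only these groups). MHC-IIHi Mac against MHC-IIlo Mac had 16 (9, 77, 92 and 0 in the same order, 0 with only these groups, 0 to 18 leaving out single arrays). The median of all genes in the comparisons with monocytes was -0.25, -0.20 and -0.22 with normexp and -0.16, -0.16 and -0.14 with median scaling. Signals near background limit Ccl4 and Ccl8 in monocytes, where 1 of 4 arrays measured them, and give only bounds for Ccl3, Ccl7 and Ccl12.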
